A study of Mus musculus with 4 samples.

Results

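The genes described here are the neighbours of Pcca on mouse chromosome 14 that were read in liver. They are the protein-coding genes that overlap positions 102534324 to 142891100 of build GRCm38, a window of 20 Mb on each side of Pcca (122534324 to 122891100, plus strand), with at least 10 counts summed over 4 libraries and Pcca itself left out. The window held 54 protein-coding genes, and 34 of them passed the minimum, out of 13623 protein-coding genes that passed it in the whole series. Of the 20 that did not, 14 had 0 counts; the nearest to the minimum were Pou4f1 with 5 counts and Scel with 4, and just inside it lay Gpr18 with 12 and Acod1 with 13. The members were selected by position and by their summed counts, and Dct and Abcc4 were singled out with their differences between the groups already known. The values that follow for Dct and Abcc4 are therefore a description of these 4 libraries, and their adjusted p-values are no independent support.

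RNA was taken from frozen livers of 4 female mice aged 11 weeks, 2 wild-type (WT) and 2 labelled PA, all kept on the FVB background and fed standard chow. The PA mice carried the hypomorphic Pcca-/- genotype with the amino acid change A138T, and the WT mice carried no stated allele. PA stands here for the label alone, and the series is titled as work on histone H4K16 acylations and how transcription responds when metabolism is disturbed. Whether the A138T copy sits at Pcca or elsewhere in the genome, which strain supplied the altered Pcca region, and whether the WT mice were littermates are not given in the sources used here. Each library is 1 mouse, so the p-values rest on 2 mice in a group and on a spread that the test shares in part across genes.

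Pcca encodes the alpha chain of propionyl-CoA carboxylase, which works in mitochondria and carries propionyl-CoA from branched-chain amino acids and odd-chain fatty acids towards the citric acid cycle. Genes that lie close together on a chromosome tend to be inherited together, so mice kept for an allele of 1 gene also share the stretch of chromosome around it. Sequence differences in that stretch cannot be read from gene counts, and their part in any value given here was not tested.

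The 250 bases before the annotated starts of Dct and Abcc4 are shown because these are the members whose transcript levels differed between the groups. They are RefSeq sequences of the reference assembly GRCm38.p6, not of these FVB mice, written 5′ to 3′ on the strand of the gene. Both genes lie on the minus strand, Dct with the window chr14:118052247-118052496 and Abcc4 with the window chr14:118706220-118706469. Capitals mark the E-box letters CATGTG in Dct and the GC box letters GGGCGG in Abcc4, each on either strand.
Dct: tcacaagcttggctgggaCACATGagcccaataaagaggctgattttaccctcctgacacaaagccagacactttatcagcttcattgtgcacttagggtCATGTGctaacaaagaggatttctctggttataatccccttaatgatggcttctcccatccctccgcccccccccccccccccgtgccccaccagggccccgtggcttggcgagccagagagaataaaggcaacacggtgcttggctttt
Abcc4: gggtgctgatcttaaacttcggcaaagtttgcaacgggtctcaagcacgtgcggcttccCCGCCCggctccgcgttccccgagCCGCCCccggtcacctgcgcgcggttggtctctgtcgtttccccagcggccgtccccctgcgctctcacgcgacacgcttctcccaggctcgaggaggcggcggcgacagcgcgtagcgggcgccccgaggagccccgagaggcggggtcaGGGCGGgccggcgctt
The window of Dct held CATGTG at 2 places, 232 and 150 bases before the start, and 12.3% of 32851 windows of the same length held it. CATGTG is the core of the element that the melanocyte factor MITF binds at pigment genes. The window of Abcc4 held GGGCGG at 3 places, a match found in 32.7% of windows, and the window of Dct held it once, which is not capitalised. The antioxidant response element core TGACNNNGC had 1 match in Abcc4, next to its last GC box without overlap, and none in Dct, against 10.2% of windows. CCAAT had 1 match in Dct and none in Abcc4 (33.8% of windows), and TATAAA had none in either (12.4%). The GC content was 54% for Dct and 72% for Abcc4, with a median of 52.4% over all windows. All motifs were searched on both strands, and a match describes letters, not a site in use. Promoter sequences were found by symbol for 26 of the 34 members.

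The libraries held between 25575016 and 30110400 gene counts, so that 3 counts corresponded to 0.0996 to 0.117 CPM, the count scaled by library size. Mitochondrial genes took 6.90 and 7.38% of counts in the WT livers and 13.6 and 8.98% in the PA livers, with PA replicate 1 the highest. Hepatocyte markers summed to between 135806 and 165687 CPM in all libraries, as the label liver implies, and kidney and pancreas markers were at or near 0. Over the 14411 genes tested, 38 (0.264%) were higher and 79 (0.548%) were lower in PA at an adjusted p under 0.05 (edgeR quasi-likelihood test, Benjamini-Hochberg). All values below are CPM on scaled library sizes unless TPM, which also corrects for transcript length, is named.

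Among the flanking genes, Dct fell and Abcc4 rose in the PA livers, and none of the other 28 tested genes passed the test. The 2 calls among 30 tested members are 6.67%, beside 0.812% of all genes tested, but the pair had been named for this difference and nothing is read from the share. The remaining members had log2 fold changes from -0.76 to 0.82. Acod1, Slain1, Gpr18 and Gpr183 had too few counts to be tested.

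**Figure D1:**
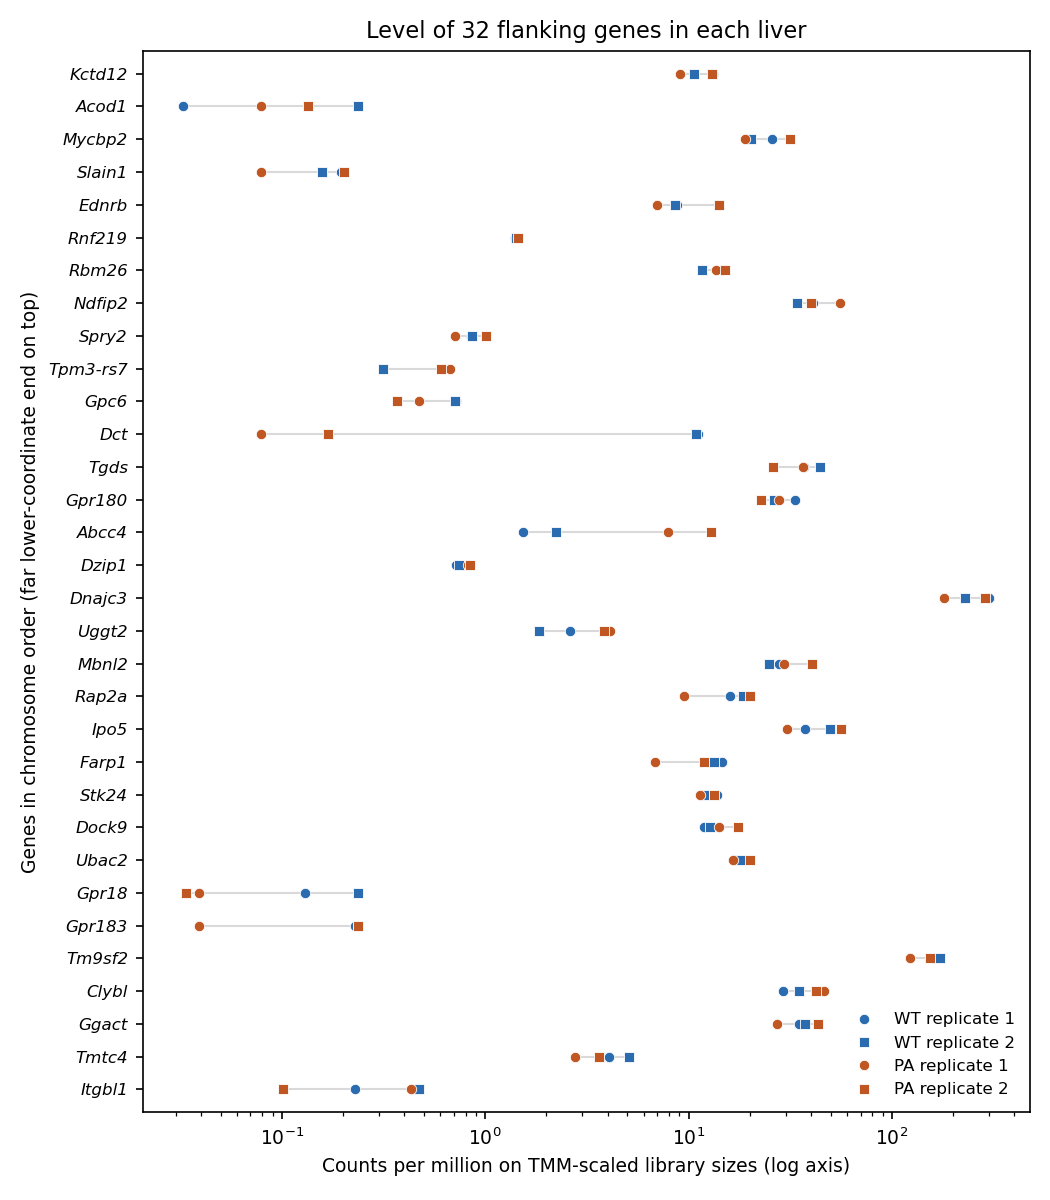
Level of 32 of the 34 flanking genes in each liver, in CPM on scaled library sizes on a log axis, with WT in blue, PA in orange, circles for replicate 1 and squares for replicate 2. Dct lies at 11.1 and 10.9 CPM in WT and falls to 0.0785 and 0.168 CPM in PA, Abcc4 lies higher in both PA livers, and the groups of most other genes lie close together or overlap.

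Dct encodes dopachrome tautomerase, an enzyme of melanin synthesis known mainly from melanocytes and the retinal pigment epithelium. The gene (ENSMUSG00000022129) occupies 118012790 to 118052244 on the minus strand, 4.48 Mb from Pcca. It was read with 342 and 278 counts in WT replicates 1 and 2 and with 2 and 5 counts in PA replicates 1 and 2. In length-corrected units these were 4.30 and 3.70 TPM against 0.02 and 0.07 TPM. The WT livers agreed closely and both PA livers were near the floor of detection. Scaled by total gene counts, the WT counts were 90.0 times the PA counts, with a 95% interval of 43.4 to 225 (exact binomial) that covers counting error only. The fit gave a log2 fold change of -6.40, standard error 0.38 (Benjamini-Hochberg adjusted p = 0.000672 by the edgeR quasi-likelihood test), and it depends in part on the prior count because the PA counts are so few. Of 14411 genes, Dct ranked 23 from the lowest fold change and 10 by p-value.

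No read of Dct was counted in the sense column, the strand not used for the main count, in any library. The second counting program, RSEM, assigned 208 and 157 expected counts to Dct in the WT livers, which are 60.8 and 56.5% of the STAR counts. The same ratio had medians of 85.9 and 86.5% over the 21 flanking genes with at least 50 counts in each library, and of 86.8 and 86.6% over 10353 such genes of the whole series. RSEM placed the WT reads on an average transcript length of 2202 and 2207 bases, and the annotated coding transcript Dct-201 is 2202 bases long. In the PA livers RSEM assigned 1 and 4 expected counts.

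None of the other genes of pigment synthesis passed the test. Of 12 melanin and melanosome genes, 5 were tested, with 1 fold change positive and 4 negative and with groups that did not overlap for 3, beside 43.2% of all genes tested. Of these 3, Rab38 and Slc24a5 were lower in PA and Rab27a was higher. Tyr, the rate-limiting enzyme of the pathway, and Tyrp1, Mlana and Oca2 had 0 counts in every library. Pmel, the fibril protein of the melanosome, had 8 and 11 counts in WT and 8 and 4 in PA, and Slc45a2, a melanosome transporter, had 8 and 5 against 2 and 2. The 9 melanocyte markers, which share Tyr, Tyrp1, Pmel, Mlana, Slc45a2, Oca2 and Mitf with that list, summed to between 6.05 and 7.69 CPM in WT and between 5.85 and 6.86 CPM in PA, mostly Mitf and Kit. Of the 9, Tyr, Tyrp1, Mlana, Oca2 and Sox10 were at 0 in all 4 libraries, and Pmel, Slc45a2, Mitf and Kit were read in each. FVB mice are albino. In bulk tissue, fewer cells of a type and less RNA per cell cannot be told apart.

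Abcc4 encodes MRP4, an ATP-driven exporter of organic anions, cyclic nucleotides and conjugated bile acids in the basolateral membrane of hepatocytes. The gene (ENSMUSG00000032849) occupies 118482692 to 118706219 on the minus strand, 3.83 Mb from Pcca. Its counts were 47 and 57 in the WT livers and 201 and 382 in the PA livers, which are 0.42 and 0.46 TPM against 1.35 and 2.22 TPM. Both PA livers lay above both WT livers, and PA replicate 2 was the higher of the pair. Summed over the group and scaled by total gene counts, the PA counts were 5.52 times the WT counts (95% counting interval 4.47 to 6.86). In the fit the log2 fold change was 2.47, standard error 0.34 (Benjamini-Hochberg adjusted p = 0.0313 by the edgeR quasi-likelihood test). Abcc4 ranked 50 from the highest fold change and 76 by p-value among the genes tested, and no read was counted in its sense column.

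Other exporters of the ABCC family were not called. Of the 9 listed, 8 were tested, with 5 fold changes positive and 3 negative. Abcc3, a basolateral exporter like Abcc4, was at 105 and 132 CPM in WT and at 167 and 142 CPM in PA (log2 fold change 0.38). Abcc2, the canalicular exporter of conjugates, was at 284 and 394 CPM against 301 and 312 CPM, with overlapping groups. All 4 cholangiocyte markers had positive fold changes with none called. The groups did not overlap for 3, beside 43.2% of all genes tested, and they overlapped for Epcam (log2 fold change 0.03). The sum of the 4 ranged from 2.95 to 3.75 CPM in WT and from 5.55 to 5.61 CPM in PA. The part of these cells in the level of Abcc4 was not tested.

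Dct and Abcc4 lie 430 kb apart and moved in opposite directions. The stretch between them holds 4 protein-coding genes, of which Tgds and Gpr180 were tested. Tgds, annotated as a dTDP-glucose dehydratase, was at 37.0 and 44.0 CPM in WT and at 36.5 and 26.1 CPM in PA (log2 fold change -0.37, standard error 0.23). Gpr180, an orphan membrane protein, was at 33.2 and 26.3 CPM against 27.9 and 22.7 CPM (-0.23, standard error 0.22). In CPM the groups of Tgds were apart by a narrow margin and those of Gpr180 overlapped. In TPM, which RSEM gives without the scaled library sizes, both genes were lower in both PA livers. Tgds was at 25.2 and 29.6 TPM in WT and at 17.0 and 14.3 TPM in PA. Gpr180 was at 21.1 and 15.8 TPM against 13.0 and 13.7 TPM. RSEM gave Gpr180 a length of 1875 bases in every library, yet PA replicate 1 was above PA replicate 2 in CPM and below it in TPM. The 2 units thus differ between libraries by more than transcript length, and no fall of Gpr180 is read from the TPM. Sox21 and the predicted gene Gm9376, also between them, had 0 counts. On the far side of Dct, the proteoglycan gene Gpc6 was read with 22 and 18 counts against 12 and 11 (log2 fold change -0.76, standard error 0.43, edgeR quasi-likelihood adjusted p = 0.565), lower in both PA livers without passing the test. On the Pcca side of Abcc4, the cilium gene Dzip1 was at 0.717 and 0.746 CPM against 0.824 and 0.841 CPM (log2 fold change 0.19).

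**Figure D2:**
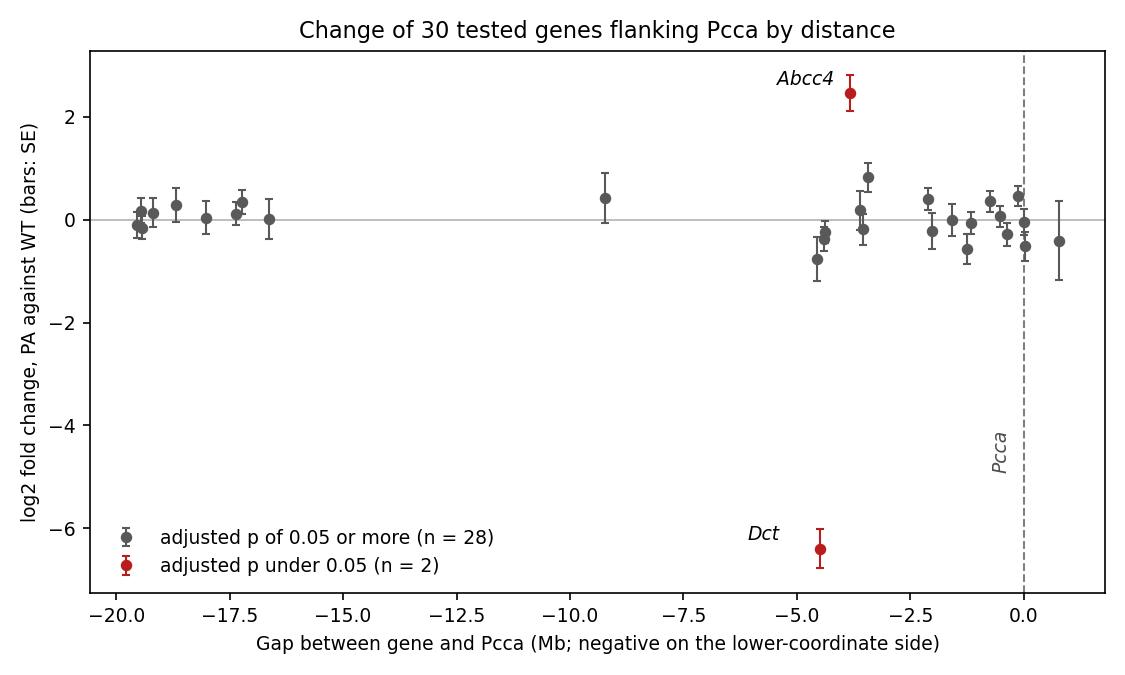
Fold change of PA against WT on the log2 scale for the 30 tested flanking genes, against the gap in Mb between the gene and Pcca, negative on the lower-coordinate side. Bars are standard errors of the edgeR fit, Dct at -6.40 and Abcc4 at 2.47 are in red, and the 28 genes in grey lie between -0.76 and 0.82.

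The 2 called genes, Dct and Abcc4, lay towards the far end of the nearer 5 Mb, with uncalled genes on both sides of each. The pair was named for its difference, so nothing about distance is read from their places. Within 2.2 Mb of Pcca on either side, an edge set after the values were seen that leaves out the pair, 12 genes were tested. None was called, beside 0.812% of all genes tested, and at so small a share this says nothing about nearness to Pcca. Their log2 fold changes ran from -0.57 to 0.47.

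Counted in bins, 17 tested genes lay up to 5 Mb below Pcca, 1 lay at 5 to 10 Mb, none at 10 to 15 Mb and 9 at 15 to 20 Mb. The groups did not overlap for 11 of the 17 nearer genes, or 64.7%, and for 1 of the 9 farther genes, or 11.1%, beside 43.2% of all genes tested. The median size of the log2 fold change was 0.36 in the nearer bin and 0.14 in the farther one, against 0.26 over all genes tested. Without Dct and Abcc4 the nearer bin had 15 genes with a median of 0.28 and 9 whose groups did not overlap. The bins therefore lay on either side of the value for all genes. The farther bin ran from -0.15 to 0.35. Over the 10 genes beyond 5 Mb the median size, 0.15, moved to 0.24 and 0.0874 when WT replicates 1 and 2 were left out in turn, and to 0.25 and 0.28 when PA replicates 1 and 2 were. Above Pcca the annotation of the chromosome ends after 1.85 Mb, and only Tmtc4 and Itgbl1 were members there.

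Across the 30 genes, Spearman's rho between distance and the size of the log2 fold change was -0.17 and Pearson's r was -0.15. Without Dct and Abcc4 (n = 28) they were -0.22 and -0.33. Among the 20 tested genes within 5 Mb on either side or overlapping Pcca the values were 0.35 and 0.42, with Dct and Abcc4 near the far end of that range, and without the pair (n = 18) they were 0.16 and 0.26. All points share the same 4 libraries, and neighbouring genes are not independent, so these values are a description. With 1 library left out, the rho over all distances ranged from -0.30 without PA replicate 2 to -0.00378 without PA replicate 1, and with the RSEM expected counts it was -0.0665.

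**Figure D3:**
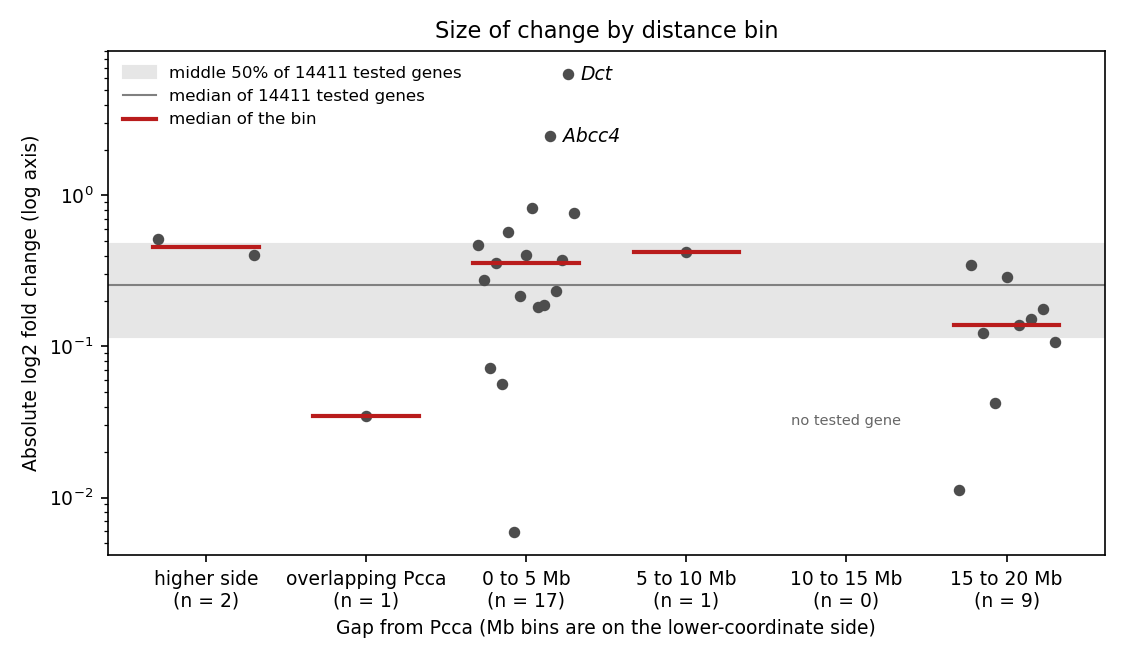
Size of the log2 fold change, on a log axis, for the 30 tested flanking genes by their gap from Pcca. Red lines are the median of each bin, 0.36 for the 17 genes at 0 to 5 Mb and 0.14 for the 9 genes at 15 to 20 Mb, and the grey line and band are the median of 0.26 and the middle 50% of all 14411 genes tested.

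The genes closest to Pcca did not pass the test. Ggact, which encodes a gamma-glutamylamine cyclotransferase and overlaps Pcca on the opposite strand, was at 34.7 and 37.2 CPM in WT and at 27.2 and 43.0 CPM in PA, with the PA livers on either side of the WT pair (log2 fold change -0.03, standard error 0.25). With counts made without regard to strand its fold change was 0.05, and its sense column held 1 to 5 counts in each library. Tmtc4, an endoplasmic reticulum mannosyltransferase gene that lies 0.0279 Mb beyond Pcca, was at 4.04 and 5.11 CPM against 2.75 and 3.63 CPM (-0.51, standard error 0.28, edgeR quasi-likelihood adjusted p = 0.546). Itgbl1, a beta-integrin-like gene and the farthest member on that side, was at 0.228 and 0.471 CPM against 0.432 and 0.101 CPM. These values overlapped and lay close to the floor of 3 counts. Pcca itself, for reference, was at 60.3 and 58.9 CPM in WT and at 34.2 and 47.4 CPM in PA, lower in both PA livers. Its log2 fold change was -0.55, standard error 0.22 (edgeR quasi-likelihood adjusted p = 0.398, 0.0427 unadjusted).

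Clybl, 0.132 Mb from Pcca, encodes the mitochondrial citramalyl-CoA lyase that takes part in the breakdown of itaconate. WT replicates 1 and 2 gave 29.2 and 34.7 CPM, and PA replicates 1 and 2 gave 46.2 and 42.2 CPM. Both PA livers lay above both WT livers, with a log2 fold change of 0.47, a standard error of 0.20 and an adjusted p of 0.414 (edgeR quasi-likelihood test; 0.0475 unadjusted). Acod1, which makes itaconate and lies 19.5 Mb away, had only 1 and 6 counts in WT and 2 and 4 in PA. A list for itaconate and citramalate handling and the propionyl-CoA route had 7 tested genes, Clybl included. None was called, with 5 fold changes positive and 2 negative, and the groups did not overlap for 4, beside 43.2% of all genes tested. The other 6 are Pccb, the partner chain of Pcca, Mcee and Mut, which act after the carboxylase, and Suclg1, Suclg2 and Sucla2, subunits of succinyl-CoA ligase.

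The enzymes of the endoplasmic reticulum, Golgi and secretory route are the most numerous group among the flanking genes. Of 7 tested, none was called, 3 fold changes were positive and 4 negative, and the groups did not overlap for 4, beside 43.2% of all genes tested. Uggt2, a homologue of the sensor that reglucosylates misfolded glycoproteins, was read with 80 and 47 counts in WT and 104 and 114 in PA. That is 2.61 and 1.85 CPM against 4.08 and 3.84 CPM, both PA livers above both WT livers (log2 fold change 0.82, standard error 0.29, edgeR quasi-likelihood adjusted p = 0.323, 0.0247 unadjusted). The length-corrected levels went the other way, with 2.40 and 1.65 TPM in WT and 1.55 and 1.53 TPM in PA. RSEM assigned 78 and 42 expected counts in WT and 79 and 97 in PA, and it placed them on an average transcript length of 1530 and 1391 bases in WT and 2137 and 2769 bases in PA. The annotation holds 14 Uggt2 transcripts, only 2 of them coding, so the RSEM level depended on which of them the reads were assigned to.

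Dnajc3 and Tm9sf2 had the highest counts of the flanking genes. Dnajc3, a co-chaperone of BiP that lies 3.55 Mb from Pcca, was at 301 and 228 CPM in WT and at 179 and 288 CPM in PA (62.6 and 49.0 against 25.0 and 50.8 TPM). Its groups overlapped, and the low value belonged to PA replicate 1. Tm9sf2, a multispanning membrane protein of endosomes and Golgi, was at 162 and 172 CPM against 122 and 153 CPM, lower in both PA livers (log2 fold change -0.28, standard error 0.22, edgeR quasi-likelihood adjusted p = 0.702). Ubac2, an endoplasmic reticulum protein of the degradation route, was at 16.8 and 18.1 CPM against 16.6 and 20.1 CPM. Of 10 genes of glycoprotein quality control elsewhere in the genome, none was called, with 3 fold changes positive and 7 negative. Hspa5, which encodes BiP, was at 1293 and 553 CPM in WT and at 561 and 964 CPM in PA, with overlapping groups.

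Among genes of small GTPases, kinases and the cytoskeleton, 5 were tested and none was called. Dock9, an exchange factor for Cdc42, was at 11.9 and 12.8 CPM in WT and at 14.1 and 17.6 CPM in PA, higher in both PA livers (log2 fold change 0.36, standard error 0.21). Farp1, another exchange factor of the FERM family, was at 14.5 and 13.3 CPM against 6.87 and 11.8 CPM, lower in both PA livers (-0.57, standard error 0.29). Rap2a, a Ras-related GTPase, was at 16.0 and 18.5 CPM against 9.50 and 20.1 CPM, with the PA livers on either side of the WT pair. Stk24, a kinase of the Ste20 family, had a log2 fold change of -0.06. Slain1, a microtubule protein, had 2 to 6 counts in each library.

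The RNA-binding and transport genes did not pass the test. Mbnl2, a splicing regulator, was at 27.9 and 24.7 CPM in WT and at 29.5 and 40.2 CPM in PA, with both PA livers higher (log2 fold change 0.41, standard error 0.22). Ipo5, a nuclear import receptor, was at 37.3 and 49.3 CPM against 30.3 and 55.9 CPM (-0.01). Rbm26, an RNA-binding protein gene 17.4 Mb away, had a log2 fold change of 0.12. The Ipo5 values show a wide spread between the PA livers around an average close to that of WT.

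The 5 genes of ubiquitin pathways all lay in the farthest bin, and 1 of them had groups that did not overlap, beside 43.2% of all genes tested. That was Rnf219, a RING finger gene, at 1.40 and 1.41 CPM in WT and 1.45 and 1.45 CPM in PA, a log2 fold change of 0.04. Groups of 2 can thus be apart over a difference that is small against its standard error of 0.32. Ndfip2, an adaptor of Nedd4-family ligases, was at 41.0 and 34.0 CPM against 55.5 and 39.9 CPM (0.35). The log2 fold change was 0.14 for Mycbp2, a large ubiquitin ligase, and -0.11 for Kctd12, a BTB-domain protein listed with this group. Spry2, an inhibitor of receptor tyrosine kinase signalling 16.6 Mb away, was at 0.848 and 0.864 CPM against 0.707 and 1.01 CPM, and Tpm3-rs7, a tropomyosin-related gene and the sole member between 5 and 15 Mb, had a log2 fold change of 0.42 on 8 to 19 counts per library.

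Of the receptor genes, Gpr180 and Ednrb were tested. Ednrb, the endothelin receptor type B, was at 8.74 and 8.56 CPM in WT and at 6.99 and 14.1 CPM in PA (log2 fold change 0.29, standard error 0.33), with overlapping groups. Gpr18 and Gpr183, receptors of lymphocytes and other leukocytes that lie within Ubac2 on its opposite strand, were read with 4 and 6 counts and 7 and 6 counts in WT, and with 1 and 1 and 1 and 7 counts in PA. For Gpr18 the WT counts were 5.08 times the PA counts (95% counting interval 1.08 to 47.7), and for Gpr183 the ratio was 1.65 (0.634 to 4.60). B cell markers were lower in the same livers: 5 of 5 had negative fold changes with none called, and their sum ranged from 12.6 to 15.1 CPM in WT and from 3.22 to 5.72 CPM in PA. Of 6 Kupffer cell markers, 5 had negative fold changes with none called, with sums of 440 to 508 CPM in WT and 218 to 307 CPM in PA. Their part in the counts of Gpr18 and Gpr183 was not tested.

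Over all 30 tested members, 15 fold changes were positive and 15 negative, with a median of 0.00. An unadjusted p under 0.05 was reached by 4, or 13.3%, beside 11.8% of all genes tested. The groups did not overlap for 13, or 43.3%, beside 43.2% of all genes, with 7 higher and 6 lower in PA. These shares are close to those of all genes. The size of change exceeded 1 on the log2 scale in Dct and Abcc4 only, beside 7.2% of all genes tested, and it was under 0.5 in 24. PA replicate 1 was the lowest of the 4 for 14 genes, and PA replicate 2 the highest for 12. The PA livers lay on either side of both WT livers for 8 genes. No share over all genes tested is given for these counts of PA livers, so nothing is read from them about the flank.

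The median standard error of the 28 uncalled genes was 0.27 on the log2 scale, and their not passing the test does not show that their levels were equal. Leaving out 1 library at a time, 14 of the 30 genes changed sign under at least 1 omission and 16 kept it, among the latter Dct, Abcc4, Clybl, Uggt2, Tm9sf2 and Tmtc4.

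On the rest of chromosome 14, 395 protein-coding genes were tested and 1 (0.253%) was called, beside 0.812% of all genes tested. It was Phf11b, 63.2 Mb from Pcca (log2 fold change -1.85, edgeR quasi-likelihood adjusted p = 0.0470). The calls in the flank are the pair named for its difference, so this share is not compared with theirs. The groups of the 395 genes did not overlap for 42.3%, beside 43.2% of all genes tested, and their median size of change was 0.22. The 28 flanking genes besides Dct and Abcc4 had a median size of 0.22.

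**Figure D4:**
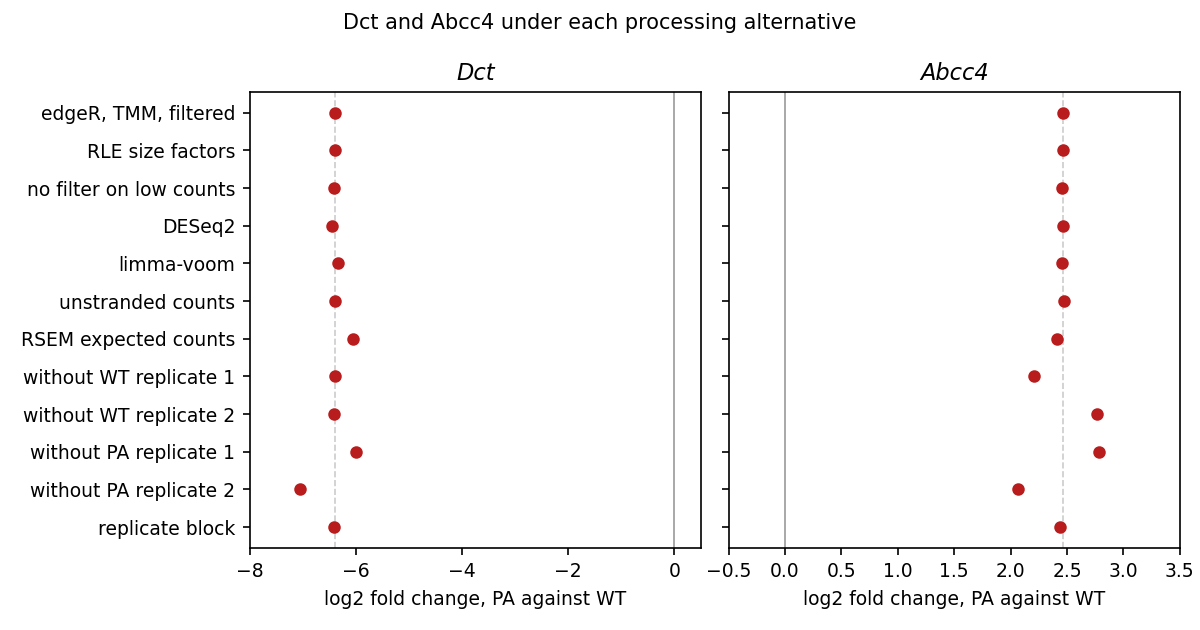
Log2 fold change of Dct and of Abcc4 under the main fit (top row, dashed line) and 11 alternatives of counting, scaling, testing, omission of 1 library and pairing. Dct stayed between -7.06 and -5.99 and Abcc4 between 2.07 and 2.78.

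Both calls held in each of 11 alternative analyses, with adjusted p-values of at most 0.00372 for Dct and 0.0477 for Abcc4. The alternatives include the edgeR, limma-voom and DESeq2 tests, counts without regard to strand, RSEM expected counts and the omission of each library. The upper value for Abcc4 lies just under the threshold of 0.05.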

How the data were processed

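Polyadenylated liver RNA of 2 WT and 2 PA mice was used, grouped and numbered by the sample titles. Raw counts per gene were deposited by the authors as STAR tables with an unstranded, a sense and an opposite-strand column. Expected counts, TPM and FPKM per gene were deposited by the authors from RSEM, per the file headers; FPKM was not used. The submitters' processing notes name STAR 2.7.6a, RSEM 1.3.3 and the build GRCm38. Which annotation release was counted is not given in the sources used here. Reads with several mapping places are absent from the STAR counts and are shared among genes by RSEM. The opposite-strand column held 97.0 to 97.1% of stranded counts and was the main count. Summary lines that name no gene held 28.1 to 34.3% of reads and were left out. Of 55487 gene identifiers, 55227 matched GENCODE M21, which gave symbols, positions and biotypes.

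Genes were tested with edgeR 4.0.16 (R 4.3.3; quasi-likelihood test, TMM scaling, default filterByExpr filter, prior count 0.125, genotype as the only term), and p-values were adjusted over all 14411 tested genes (Benjamini-Hochberg), with calls at under 0.05. The standard error of a log2 fold change is its value over the root of F. Ratios of summed counts are scaled by total gene counts, without TMM, and carry exact binomial intervals for counting error only. Neither pair of replicates agreed within sampling noise (chi-square per degree of freedom 46.3 for WT and 135 for PA over genes with at least 20 counts). The testing steps were also run on counts simulated with the spread fitted as a trend to these same libraries. Such counts cannot check the spread of single genes, and nothing is concluded from them. Alternatives were other size factors, no filter, DESeq2 1.42.0, limma-voom (limma 3.58.1), unstranded counts, RSEM expected counts rounded to whole numbers, narrower windows, distance between gene starts, omission of each library and a replicate block.

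Distance is the gap between gene bodies. Named genes were Dct, Abcc4 and Pcca, called members, members with an unadjusted p under 0.05, the 3 tested members nearest to Pcca on each side, the 5 with the highest mean TPM, and any at 0 in a whole group or apart between groups with a log2 fold change over 1 in size; other members are named by role, except 2 that are not reported here by name and stand only in the counts. The members and the gene lists were chosen with earlier results of these data known. Other genes named, such as Phf11b, were chosen after their values were seen.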

Additional observations from a re-analysis of the deposited data

How the results depend on the processing

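The flanking genes called, 1 higher and 1 lower, were the same in number under every alternative run, windows of 10 and 5 Mb included. Over all genes, 38 were higher and 79 lower. Without the filter on low counts, which brought 24406 genes into the test, 414 were higher and 488 lower, and with DESeq2 186 were higher and 248 lower. With 1 library left out, the higher calls ranged from 50 to 239 and the lower calls from 105 to 261, the most without PA replicate 2; the cause was not tested. The median size of change within 5 Mb, 0.36 over 20 genes, ranged from 0.33 to 0.48, and beyond 5 Mb, 0.15, from 0.0874 to 0.28 with 1 library left out. The nearer median was above the farther one under each alternative run. An omission that leaves 1 mouse in a group assumes that it varies like the other group.

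Among named genes that did not pass the test, the fold change turned for Dnajc3 to 0.03 without WT replicate 1 and to 0.12 without PA replicate 1, with a lowest value of -0.57 without PA replicate 2. For Ggact it turned to 0.0486 with unstranded counts, 0.00988 with RSEM, 0.0268 without WT replicate 2 and 0.26 without PA replicate 1, and was lowest at -0.41 without PA replicate 2. For Itgbl1 it turned to 0.19 without WT replicate 2 and 0.33 without PA replicate 2, against -1.72 without PA replicate 1. For Ubac2 it ranged from -0.0758 without PA replicate 2 to 0.21 without PA replicate 1.

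Replicate numbers are shared by the titles, but nothing says that they pair mice, and the deviations of same-numbered libraries correlated at -0.0907. With a replicate block, 126 genes were higher and 192 lower, and Dct and Abcc4 remained the called members.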

Other observations

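The window around Pcca also holds 170 non-coding genes and pseudogenes, of which 16 had at least 10 summed counts and 8 were tested. None was called by the edgeR quasi-likelihood test, and 1 had an unadjusted p under 0.05. This was B930095G15Rik, a sense-intronic transcript 1.28 Mb from Pcca, with 34 and 32 counts in the WT livers and 14 and 17 in the PA livers (log2 fold change -1.07, adjusted p = 0.326). Mir17hg, the host of the miR-17 cluster at 7.49 Mb, had 78 and 58 counts against 62 and 66 (log2 fold change -0.05).

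RSEM's average transcript length of Pcca was shorter in both PA livers, at 2001 and 1781 bases in WT and 1422 and 1374 bases in PA. Its coding transcript Pcca-201 is 2592 bases long, and 13 transcripts are annotated. With this difference in length the TPM of Pcca was 34.4 and 35.2 in WT and 20.9 and 37.4 in PA, so the groups overlapped in TPM and not in CPM. Of 10353 genes with at least 50 counts in each library, 0.715% had a mean length in PA of at most 0.8 of that in WT with groups apart, a limit chosen after the values were seen. None of the 21 flanking genes with that depth did.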
